A study of Homo sapiens with 8 samples.

Results

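The glucocorticoid receptor gene NR3C1 and 6 genes that the receptor is known to induce, FKBP5, PER1, DUSP1, ZBTB16, KLF9 and SGK1, were examined for H3K4me1, 7 of 19970 protein-coding genes in all. The 7 genes were taken from a list of names and not by any measured value. The mark was mapped by ChIP-seq (immunoprecipitation of chromatin followed by sequencing) in ARID1A knockout and in control cells of MDA-MB-231, an established triple-negative breast cancer line. Each genotype had 2 immunoprecipitated samples and 2 input samples, and the deposited results were 1 list of peaks over input for each genotype, with positions in hg38. The sources used here do not say whether the knockout cells were 1 clone or a pool, what the control cells carried, or how the replicates entered a list, and the labels name no hormone treatment. With 1 list per genotype, no difference below has a replicate check or a test.

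The glucocorticoid receptor is a nuclear receptor that stays in the cytoplasm with HSP90 and its cochaperones until cortisol or a synthetic glucocorticoid binds it. It then enters the nucleus and binds response elements, many of them in enhancers far from the gene they control, with coactivators or corepressors. H3K4me1 marks enhancers and the flanks of active promoters, and is typically low at the start site itself. ARID1A belongs to SWI/SNF, a remodelling complex that the receptor is known to recruit to chromatin. A peak of H3K4me1 does not measure transcription or receptor binding.

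NR3C1 had the largest difference in covered bases of the 7 genes. It had about 1.27 times as many bases under H3K4me1 peaks in the knockout list as in the control list, a ratio that DUSP1 shared (1.27) over a far shorter window. At NR3C1 the direction held under every one of the 5 alternative peak sets and windows tried. DUSP1, PER1 and ZBTB16 had at least 1000 more covered bases in the knockout list, KLF9 and SGK1 at least 1000 fewer, and FKBP5 was within 1000 bases, but for each of these 6 genes at least 1 alternative changed the sign, took the difference below 1000 bases or, at FKBP5, made it a deficit of over 1000 bases. Thus 4 of 7 genes were higher and 2 of 7 lower, against 20.2% and 30.0% of all 19970 protein-coding genes. None of the 7 reached a ratio of 1.5 in either direction, whereas 12.4% of all genes did so as higher and 19.3% as lower. The median difference over the 7 genes was 1075 bases and their median ratio 1.17, beside a median difference of 0 over all genes and a median ratio of 0.940 over the 15490 genes with peaks in both lists. Without NR3C1, the sum over the other 6 genes was 76416 covered bases in the knockout list and 75698 in the control list.

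Covered bases were counted over each gene's RefSeq record (GRCh38.p14) with 5000 bases on either side. The knockout list held 73600 peaks on chromosomes 1 to 22 and X and the control list 82994. Read totals are not part of these lists, so the depth behind a peak is unknown. The input background under a peak was implied from the authors' pileup and fold, so scaling for depth may enter it. Over all peaks it was 1.25 times as high in the knockout list as in the control list. This knockout over control ratio, taken at a gene and divided by that of all peaks, is called the input ratio. Peaks at the 7 genes were of ordinary strength for these lists: 37.8% of the knockout peaks at the genes and 37.5% of all knockout peaks reached a −log10 q of 5, against 29.8% and 28.8% in the control list. All 6 genes checked as markers of mesenchymal triple-negative cells (VIM, CD44, EGFR, AXL, CAV1 and ZEB1) carried peaks in both lists. Of 6 luminal genes, the progesterone receptor gene PGR had 0 covered bases in the knockout list and 1081 in the control list, while ESR1, GATA3, FOXA1, KRT18 and CDH1 carried peaks in both lists. Coverage of the markers differed too, by at least 1000 bases as higher in 3 and as lower in 0 of the 6 mesenchymal genes (median difference 1819.5 bases), and as higher in 2 and as lower in 3 of the 6 luminal genes. Of all genes 20.2% were higher and 30.0% lower. CD44 had 55499 bases in the knockout list and 44927 in the control list, ZEB1 had 55704 and 47349, ESR1 had 36816 and 27383, and CDH1 had 23935 and 16991. At a fold of at least 4 the mesenchymal counts were 1 higher and 4 lower and the luminal counts 2 and 1. Of all genes 14.5% were higher and 19.4% lower at that fold. With peaks reaching a −log10 q of 5 the mesenchymal counts were 5 higher and 0 lower and the luminal counts 3 and 0. Of all genes 26.7% and 17.7% were so at that limit. The part of these shifts in the results below was not tested.

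RefSeq (GRCh38.p14) gives 15 promoter windows for 6 of the 7 genes, each running from 250 bases before a transcription start to 50 after it, all on the minus strand. ZBTB16 has no entry. The same 6 windows overlapped a peak in both lists, 6 of 15 against 22.6% of all 34961 windows in the knockout list and 6 of 15 against 16.4% in the control list. Windows of NR3C1 share bases with each other and are not separate observations. The 2 sequences shown first contrast an NR3C1 start outside peaks in both lists with one under a peak in both lists, and each gives the 250 bases before the start with CG dinucleotides in capitals. The internal start at 143405355 (chr5:143405356-143405605, minus strand) lies in the CG-rich cluster of 5 starts, and the upstream start at 143435512 (chr5:143435513-143435762, minus strand) is the outer end of the gene record.
NR3C1 internal start: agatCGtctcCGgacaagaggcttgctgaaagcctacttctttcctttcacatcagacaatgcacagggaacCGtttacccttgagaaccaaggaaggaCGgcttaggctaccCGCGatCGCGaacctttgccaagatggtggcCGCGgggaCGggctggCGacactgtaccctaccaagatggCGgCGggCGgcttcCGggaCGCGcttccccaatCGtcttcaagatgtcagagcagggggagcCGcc
NR3C1 upstream start: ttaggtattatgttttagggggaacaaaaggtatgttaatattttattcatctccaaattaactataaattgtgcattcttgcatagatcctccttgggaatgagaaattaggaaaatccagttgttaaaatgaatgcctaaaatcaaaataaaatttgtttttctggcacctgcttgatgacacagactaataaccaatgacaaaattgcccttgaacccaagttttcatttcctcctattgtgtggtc
The first holds 20 CG dinucleotides and 59.6% G and C, the second 0 and 32.8%. This contrast is of 1 pair of starts. Over all 34961 windows, the median G and C share was 60.7% with a knockout peak and 57.7% without. For control peaks it was 58.3% and 58.7%. The whole PER1 window, under a peak in both lists, had 69%.

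The 3 sequences shown next belong to a start under peaks in both lists (PER1, chr17:8152405-8152654), a start between peaks in both lists (DUSP1, chr5:172771196-172771445) and a start under a peak in the knockout list alone (SGK1, chr6:134177862-134178111), all minus strand. Capitals mark the motifs searched that fall in these bases: the cAMP response element TGACGTCA, the E-box CACGTG bound by clock proteins and the TATA box TATAAA.
PER1: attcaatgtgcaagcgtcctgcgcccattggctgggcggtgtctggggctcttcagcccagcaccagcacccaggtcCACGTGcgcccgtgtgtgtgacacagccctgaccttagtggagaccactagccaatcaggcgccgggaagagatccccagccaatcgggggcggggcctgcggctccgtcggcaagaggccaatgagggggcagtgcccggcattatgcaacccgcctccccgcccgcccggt
DUSP1: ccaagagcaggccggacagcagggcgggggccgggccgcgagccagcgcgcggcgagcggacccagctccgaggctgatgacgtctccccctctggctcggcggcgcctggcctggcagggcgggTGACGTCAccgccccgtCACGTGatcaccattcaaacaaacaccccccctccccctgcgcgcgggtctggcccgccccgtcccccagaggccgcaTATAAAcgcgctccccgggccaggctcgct
SGK1: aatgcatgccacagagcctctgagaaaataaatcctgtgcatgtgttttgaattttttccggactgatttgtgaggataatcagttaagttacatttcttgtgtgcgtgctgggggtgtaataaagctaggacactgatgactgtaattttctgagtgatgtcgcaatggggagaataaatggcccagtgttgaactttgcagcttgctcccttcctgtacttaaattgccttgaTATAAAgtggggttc
PER1 has 1 E-box, and DUSP1 has 1 cAMP response element, 1 E-box and 1 TATA box. SGK1 has 1 TATA box at this start. The SGK1 start itself was outside control peaks, but a control peak covered 19 bases of its window.

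Motifs were searched on both strands of each whole window, and none of the letters searched overlaps another motif in these 3 sequences. The core of the palindromic glucocorticoid response element, ACANNNTGT, was in 0 of the 15 windows and in 5.36% of all windows. The half-site AGAACA was in 2 of 15, at the outer FKBP5 start and at the SGK1 start shown, and in 14.8% of all windows. TGACGTCA was in 1 of 15 (DUSP1) and in 1.85% of all windows. CACGTG was in 3 of 15 (PER1, DUSP1 and the inner FKBP5 start) and in 7.27% of all windows, and TATAAA in 5 of 15 and in 11.5%. These are matches of letters within 300 bases and not binding sites, and the windows leave out distal elements.

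**Figure D1:**
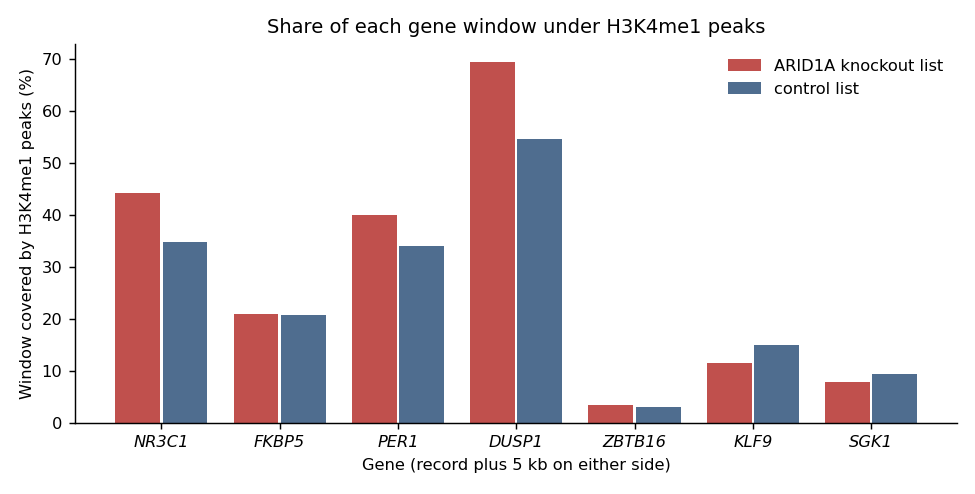
Percent of each gene window (record plus 5 kb on either side) covered by H3K4me1 peaks, in the ARID1A knockout list (left bar) and the control list (right bar), 1 list each. DUSP1 had the highest share (69.4% and 54.6%) and ZBTB16 the lowest (3.48% and 2.96%).

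Per length of window, the order of the genes was the same in both lists. In the knockout list DUSP1 came first with 69.4% of its window covered, then NR3C1 (44.2%) and PER1 (40.03%), then FKBP5 (20.8%), KLF9 (11.5%), SGK1 (7.80%) and ZBTB16 (3.48%). In the control list the shares were 54.6% for DUSP1, 34.7% for NR3C1, 34.1% for PER1, 20.7% for FKBP5, 15.0% for KLF9, 9.31% for SGK1 and 2.96% for ZBTB16. With no replicate lists, whether neighbours in this order differ beyond their spread cannot be said. DUSP1 and PER1 are short genes, with records of 3100 of 13100 and 11933 of 21933 window bases. Flank is most of the DUSP1 window and a large part of the PER1 window. This raises the share when peaks lie around the start.

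NR3C1 (chromosome 5, 143277931 to 143435512) encodes the receptor itself. In the knockout list 17 peaks covered 74050 bases of its window, against 14 peaks and 58193 bases in the control list, a difference of 15857 bases. This was the largest difference of the 7 and the 111th largest excess in the knockout list among all 19970 genes, a ranking that favours long genes. Both lists covered 51465 bases, the knockout list alone covered 22585 and the control list alone 6728.

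Of the 22585 bases covered in the knockout list alone, 7761 lay in the window in 5 peaks with no control overlap and 14824 belonged to the other 12 peaks, which overlapped control peaks. All 14 control peaks at NR3C1 overlapped a knockout peak. The 5 knockout peaks without overlap were weak, with a −log10 q between 1.28 and 2.97. The larger part of these bases thus lay in peaks that met a control peak by at least 1 base. Some met it only at an edge. The knockout peak at 143364644 to 143366845 ended just past the start of a control peak at 143366818. That at 143303963 to 143307079 met a control peak ending at 143304336. How many of these bases lay at places marked in both lists depends on the overlap asked for.

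**Figure D2:**
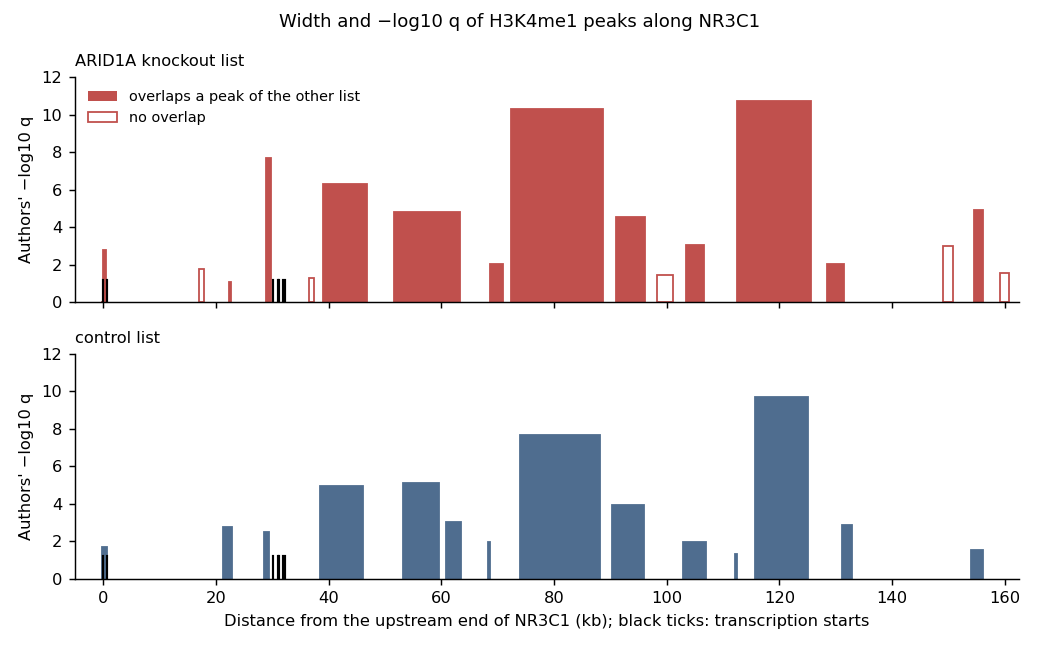
H3K4me1 peaks along NR3C1, with the distance from the upstream end of the gene record in kb on the x axis, the authors' −log10 q as height and peak width drawn to scale, knockout list above and control list below. Filled peaks overlap a peak of the other list, open ones do not, and black ticks are transcription starts. The widest and strongest peaks of both lists lie downstream of the internal starts, and 5 knockout peaks are open.

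The widest knockout peak (143346747 to 143363161) was 16415 bases wide with a −log10 q of 10.3 and faced a control peak of 14230 bases and 7.69. The strongest knockout peak (143309943 to 143323066) was 13124 bases wide with a −log10 q of 10.7, and it overlapped control peaks of 9387 bases (9.71) and 470 bases (1.33). Another wide knockout peak of 11743 bases (143372257 to 143383999) overlapped control peaks of 2731 and 6411 bases. These blocks lie in the gene body, downstream of all 7 listed starts. The strongest began 112446 bases from the outer start. The authors' −log10 q orders peaks within a list. It also sets a limit applied alike to both lists further on, and 1 limit need not be equally strict in both.

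None of the 5 internal starts, at positions 143403283 to 143405355, lay under a peak of either list. The nearest peak began 444 bases from the outermost of the 5 in the knockout list and 794 bases in the control list. That peak was 900 bases wide with a −log10 q of 7.67 in the knockout list and 823 bases wide with 2.49 in the control list. The outer start at 143435512 lay under a peak of 644 bases (−log10 q 2.80) in the knockout list and of 976 bases (1.67) in the control list.

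FKBP5 (chromosome 6, 35573590 to 35728583) encodes FKBP51, a cochaperone that lowers the hormone affinity of the receptor and so forms a feedback loop. It had 10 peaks covering 34368 bases in the knockout list and 12 peaks covering 34177 bases in the control list. The totals were nearly equal with the lists as deposited, but 6964 bases were covered in the knockout list alone and 6773 in the control list alone. In 4 of the 5 alternatives the total was lower in the knockout list, by -2714 bases with peaks reaching a −log10 q of 5, -2464 with the same merging distance and shortest peak in both lists, -2449 with 50000 bases on either side and -935 over the record alone. The strongest peak in each list spanned the outer start, with 8128 bases and a −log10 q of 10.7 in the knockout list and 6125 bases and 10.8 in the control list.

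The widest FKBP5 peak differed in shape between the lists. A block inside the gene was split into peaks of 11389 and 2987 bases in the knockout list and was a single peak of 17105 bases in the control list (35662091 to 35679195). The inner start at 35688915 was under no peak. A weak control peak of 478 bases (−log10 q 2.297) lay 324 bases upstream of it, while the nearest knockout peak was 1519 bases away. The knockout list had 1 FKBP5 peak with no overlap and the control list had 3.

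**Figure D3:**
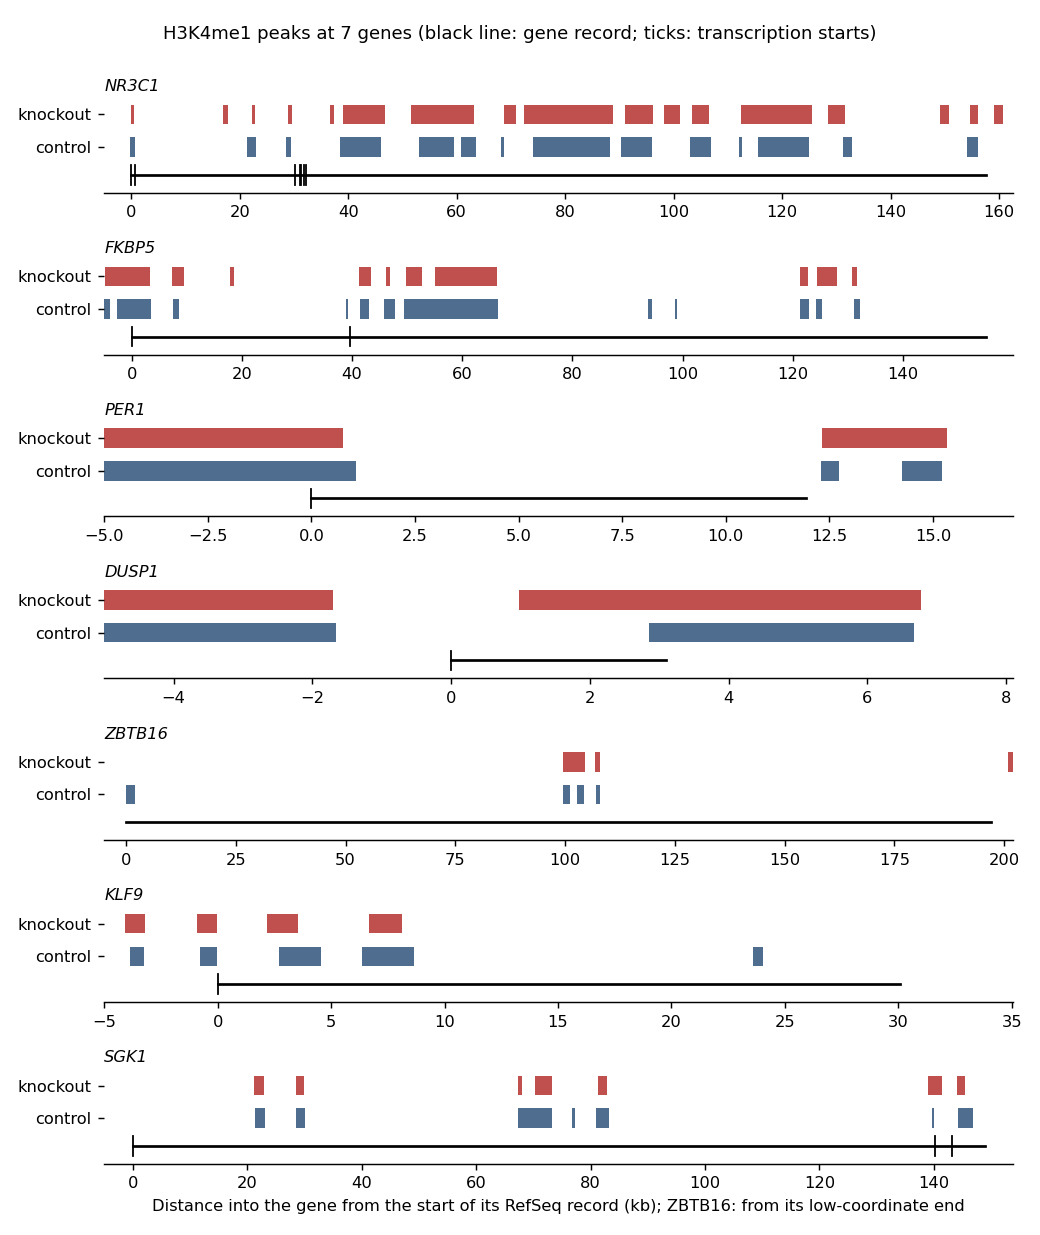
Peak maps of the 7 genes, knockout list above control list, with the distance into the gene in kb from the upstream end of the record (for ZBTB16, from its low-coordinate end). The black line is the gene record and ticks are transcription starts. Peaks of both lists stand at mostly the same places, with breaks and edges that differ.

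PER1 (chromosome 17, 8140472 to 8152404), a repressor of the circadian clock, had 2 peaks with 8780 covered bases in the knockout list and 3 peaks with 7476 in the control list. Its start lay under the strongest peak of both lists. That peak was 6014 bases wide with a −log10 q of 12.1 in the knockout list and 14245 bases wide with 11.2 in the control list, and it ran beyond the window on the upstream side. Within the gene record itself only 770 bases were covered in the knockout list and 1068 in the control list. The excess of 1304 bases in the window came from beyond the far end of the gene, where a knockout peak of 3010 bases faced control peaks of 971 and 437 bases.

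DUSP1 (chromosome 5, 172768096 to 172771195) encodes a phosphatase that switches off MAP kinases. It had 2 peaks in each list, with 9090 covered bases in the knockout list and 7148 in the control list. In both lists the start lay in a gap between the peaks. The upstream peak began 1695 bases from the start in the knockout list and 1663 bases from it in the control list, and its −log10 q of 15.6 and 12.8 was the highest at any of the 7 genes in either list. The downstream peak ended 984 bases from the start in the knockout list and 2857 bases from it in the control list, so 2116 bases of the gene record were covered in the knockout list and 243 in the control list. The input ratio at DUSP1 was 1.19, the highest of the 7 genes, and its part in the difference was not tested.

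ZBTB16 (chromosome 11, 114059711 to 114256770) encodes PLZF, a zinc finger repressor that glucocorticoids induce in several tissues. It had 3 peaks with 7199 covered bases in the knockout list and 4 peaks with 6124 in the control list, the smallest shares of the 7 genes. The shared marks formed a cluster in the gene body, where a knockout peak of 4976 bases (114159330 to 114164305, −log10 q 7.57) faced control peaks of 1696 bases (4.36) and 1516 bases (2.50). At the low-coordinate end of the record a control peak of 1897 bases (114059805 to 114061701, −log10 q 2.69) had no knockout counterpart. The knockout excess in the window came from a peak of 1064 bases (−log10 q 1.58) beyond the record, inside the neighbouring gene NNMT. Over the record alone the 2 lists covered 6135 and 6124 bases, knockout and control.

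KLF9 (chromosome 9, 70384604 to 70414657), a Krüppel-like transcription factor gene, had 4 peaks with 4595 covered bases in the knockout list and 5 peaks with 5990 in the control list. All 4 knockout peaks overlapped control peaks, and 1 control peak of 419 bases (−log10 q 1.69) had no overlap. A peak lay just upstream of the start, 7 bases away in the knockout list and 33 bases away in the control list. The main intragenic peak was 1435 bases wide in the knockout list and 2296 bases wide in the control list, with −log10 q of 5.72 and 6.25.

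SGK1 (chromosome 6, 134169256 to 134318112) encodes a kinase that acts on ion transport and cell survival. It had 7 peaks in each list, with 12384 covered bases in the knockout list and 14783 in the control list. The strongest peak lay inside the long form of the gene at almost the same position in both lists (134295115 to 134296970 in the knockout list), with a pileup of 24.9 and a fold of 3.97 in the knockout list and a pileup of 21.8 and a fold of 5.99 in the control list. The implied input background there was 5.52 in the knockout list and 2.80 in the control list. At the middle start (134177861) a knockout peak of 2479 bases (−log10 q 1.80) covered all 300 bases of the window, while a control peak of 333 bases (2.68) covered 19. The short-form start at 134174866 lay outside peaks in both lists, 810 bases from the nearest in the knockout list and 1061 bases from it in the control list. Of the bases covered in 1 list only, 2727 were in the knockout list and 5126 in the control list. A block at 134244796 to 134250730 was covered by peaks of 3092 and 583 bases in the knockout list and by a single peak of 5784 bases in the control list.

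Peaks were mostly shared between the genotypes, at the 7 genes as over all peaks of the lists. Of 45 knockout peaks 7 had no control overlap, against 21.3% of all knockout peaks, and of 47 control peaks 6 had no knockout overlap, against 28.2% of all control peaks. The 7 knockout peaks were 5 at NR3C1, 1 at FKBP5 and 1 at ZBTB16, and the 6 control peaks were 3 at FKBP5 and 1 each at ZBTB16, KLF9 and SGK1. None had a −log10 q above 2.97 in the knockout list or above 2.69 in the control list, while overlapping peaks had medians of 4.67 and 3.69. Of the bases covered in either list, 63.6% were covered in both at the 7 genes and 54.8% over all peaks. The share was highest at PER1 (78.4%) and DUSP1 (78.0%), and lowest at ZBTB16 (43.1%).

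**Figure D4:**
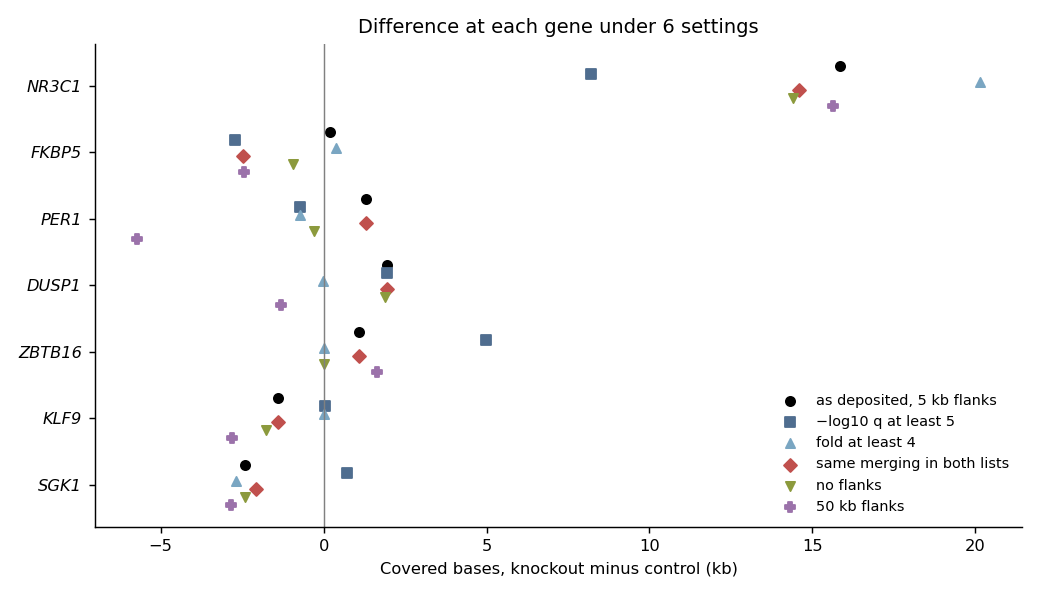
Covered bases in the knockout list minus those in the control list at each of the 7 genes, in kb, with the lists as deposited and 5 kb flanks (black) and under 5 alternatives. NR3C1 is above 0 in all 6, from 8204 to 20152 bases, and each of the other 6 genes has points on both sides of 0 or within 1000 bases of it.

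At NR3C1 the knockout and control lists covered 38232 and 30028 bases when only peaks reaching a −log10 q of 5 were kept, and 29539 and 9387 among peaks with a fold of at least 4. The second gap is wide because the block of 16415 and 14230 bases had a fold of 4.03 in the knockout list and 3.84 in the control list, on either side of that limit. With the same merging distance and shortest peak in both lists, 74050 and 59447 bases were covered. PER1 turned to -735 bases at either limit of strength, KLF9 to 34 and SGK1 to 728 bases at the −log10 q limit, and DUSP1 to -32 bases at a fold of at least 4. ZBTB16 kept 4976 bases in the knockout list and 0 in the control list at the −log10 q limit of 5 and none in either at a fold of at least 4.

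The input ratio was 1.02 at NR3C1, 1.06 at FKBP5 and at KLF9, 0.956 at ZBTB16, 0.944 at SGK1 and 0.840 at PER1. The part of input background in the differences at these genes was not tested.

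Other genes of the pathway were grouped by role. Among 10 chaperones and cochaperones of the receptor, 0 had at least 1000 more covered bases in the knockout list and 7 had at least 1000 fewer, with a median difference of -2626 bases, against 20.2% of all genes as higher and 30.0% as lower. HSPA4, a chaperone of the HSP110 family, had 10062 covered bases in the knockout list and 20302 in the control list, and DNAJB1, an HSP40 cochaperone, had 18313 and 22118. The input ratio at DNAJB1 was 1.45, and its part was not tested. HSP90AB1, which encodes the constitutive HSP90, had 5674 bases in the knockout list and 9339 in the control list, but 4665 and 0 with peaks reaching a −log10 q of 5, and 2481 and 0 at a fold of at least 4. DNAJB1 also turned at the −log10 q limit, to 14052 bases in the knockout list and 13370 in the control list. At that limit the group had 3 genes higher and 3 lower and a median difference of 341 bases, while 26.7% of all genes were higher and 17.7% lower.

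With the lists as deposited, coregulators had the lowest median difference of the role groups, -9411 bases. Of 9 genes 7 were at least 1000 bases lower in the knockout list and 1 was higher, against 30.0% and 20.2% of all genes. CREBBP, which encodes the acetyltransferase CBP, had 28689 covered bases in the knockout list and 47999 in the control list, and NRIP1, a corepressor gene, had 12787 and 26652. With peaks reaching a −log10 q of 5, 5 of the 9 were lower and 1 higher, against 17.7% and 26.7% of all genes. At a fold of at least 4 the coregulator median was -49 bases, with 4 lower and 2 higher, and that of the chaperones was -999 bases, with 5 lower and 1 higher. Of all genes 19.4% were lower and 14.5% higher at that fold. With peaks reaching a −log10 q of 5 CREBBP had 3029 bases in the knockout list and 27462 in the control list, and NRIP1 had 0 in both.

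Of 5 genes for related receptors and cortisol-converting enzymes, 1 was higher and 2 lower, against 20.2% and 30.0% of all genes. HSD11B1, whose enzyme regenerates active cortisol, had 8170 bases in the knockout list and 5799 in the control list, with an input ratio of 1.46, whose part was not tested. The mineralocorticoid receptor gene NR3C2 had 10066 and 11298, and PGR, given above, was the other lower gene. Of 33 other target genes 9 were higher and 7 lower, with a median difference of 410 bases, where 20.2% of all genes were higher and 30.0% lower. CRISPLD2, a secreted protein gene, had 21759 bases in the knockout list and 17785 in the control list, and SNAI2, which encodes the transcription factor Slug, had 6120 and 2279. In the other direction IRS2, an adaptor of insulin signalling, had 13921 and 22239, and PIK3R1, the regulatory subunit of PI3 kinase, had 8601 and 15417. At a fold of at least 4 CRISPLD2 turned to 10204 bases in the knockout list and 10820 in the control list. SNAI2 had no peak at either limit of strength, and over its record alone it had 1149 bases in the knockout list and 1197 in the control list.

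**Figure D5:**
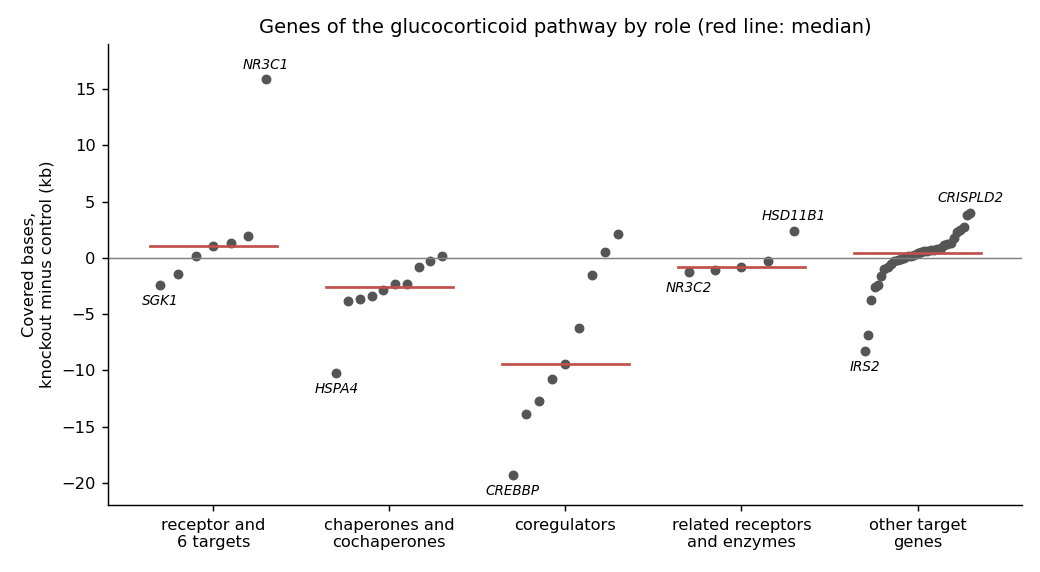
Covered bases in the knockout list minus those in the control list, in kb, with the lists as deposited, for the 7 genes and for 57 further pathway genes by role, 1 point per gene, with the median of each group in red. The medians of the chaperone and coregulator groups are below 0 (-2626 and -9411 bases; 341 for the chaperones with peaks reaching a −log10 q of 5), those of the 7 genes and the other target genes above it (1075 and 410 bases).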

How the data were processed

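Per the labels, chromatin of 8 samples (2 immunoprecipitated and 2 input samples for each genotype) was cut with micrococcal nuclease. The extraction protocol names an H3K4me3 antibody, whereas titles and antibody labels say H3K4me1, which is used here. The submitters' processing notes name hg38, Bowtie2 2.3.5.1 and MACS2 2.2.6, and thresholds are not given there. Per the file headers, the authors deposited for each peak its position, length in bases, pileup signal, fold enrichment, and −log10 q-value. The lowest −log10 q was 1.01 in each list.

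Covered bases were counted with Python 3.11.15 and numpy 2.4.6 over the RefSeq record of each gene plus 5000 bases, with 1 record per symbol. A gene was called higher or lower at a difference of at least 1000 bases, and a peak counted as shared at an overlap of at least 1 base. Interval code was tested on simulated data. The implied input background was (pileup + 1) / fold − 1, taken as the median over the peaks of a window, which assumes a pseudocount of 1 and uses values averaged over peaks. The lowest implied value was 2.60 in the knockout list and 2.40 in the control list, so a floor may enter it too. Shortest peaks of 361 bases (knockout) and 312 bases (control) and smallest gaps of 1445 and 1249 bases differ between the lists, so peaks may have been merged differently. An alternative applied a merging distance of 1444 bases and a shortest peak of 361 bases to both, without redoing the pileup.

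All 7 genes were named, and in each other role list up to 2 genes in each direction with the largest differences of at least 1000 bases. HSP90AB1 was added after its values were seen. PGR was named as a marker. For 1 gene picked this way the values are not reported here. The genes and lists were chosen with earlier results of these data known. With 2 values per gene, no genes of like pattern were sought.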

Additional observations from a re-analysis of the deposited data

How the results depend on the processing

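No paired analysis was possible because each genotype has 1 list, and for the same reason no replicate could be left out. Of the 7 genes, 4 had more and 2 fewer covered bases in the knockout list, 11 of 57 further pathway genes had more and 23 fewer, and 7 knockout and 6 control peaks had no overlap. With peaks reaching a −log10 q of 5, 3 of the 7 had more and 1 fewer, 18 pathway genes had more and 16 fewer (of all genes 26.7% and 17.7%), and 6 of 17 knockout and 2 of 14 control peaks had no overlap (of all peaks 35.1% and 24.9%). At a fold of at least 4, 1 of the 7 had more and 1 fewer. Of the pathway genes 7 had more and 20 fewer (of all genes 14.5% and 19.4%). At that fold 2 of 6 knockout and 4 of 8 control peaks had no overlap (of all peaks 39.99% and 47.19%). With the same merging distance and shortest peak, 4 of the 7 had more and 3 fewer, with 9 and 23 pathway genes (of all genes 18.4% and 32.0%). After that merging 8 of 45 knockout and 6 of 43 control peaks had no overlap (of all peaks 22.2% and 26.6%). Over the gene record alone 2 genes had more and 2 fewer, with 10 and 20 pathway genes (of all genes 14.9% and 24.5%). With 50000 bases on either side, 2 had more and 5 fewer, with 16 and 30 pathway genes (of all genes 26.2% and 46.0%). In those windows 8 of 75 knockout and 14 of 82 control peaks had no overlap (of all 21.3% and 28.2%). When an overlap of at least 50% of the shorter peak was asked for, 9 of 45 knockout and 9 of 47 control peaks had none (of all 23.6% and 30.8%). At a ratio of at least 1.5, 0 genes had more and 0 fewer, with 3 and 12 pathway genes (of all genes 12.4% and 19.3%). At 2000 bases, 1 gene had more and 1 fewer, with 7 and 18 pathway genes (of all genes 11.0% and 18.7%). Reversed differences were -735 bases at PER1 at either limit of strength, -298 over its record and -5735 with 50000 bases; -32 at DUSP1 at the fold limit and -1321 with 50000 bases; and 34 at KLF9 and 728 at SGK1 at the −log10 q limit. FKBP5, within 1000 bases as deposited, was below 0 in 4 of 5 alternatives, down to -2714. NR3C1 ranged from 8204 to 20152 bases. Limits of strength remove and window limits add or remove peaks by construction. Of all genes, 20.2% were higher and 30.0% lower as deposited, so the −log10 q limit alone shifts the balance of directions. Which of the lists' limits is equally strict in both is unknown, and depth could not be assessed.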

Other observations

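Some widely used glucocorticoid target genes outside the naming rule were looked up after their values were seen. TSC22D3, which encodes the anti-inflammatory protein GILZ, had 8416 covered bases in the knockout list and 11003 in the control list, but 7704 and 0 with peaks reaching a −log10 q of 5. With 50000 bases on either side it had 19221 and 19341. PER2, the paralog of PER1, had 4480 and 3784, and 9938 and 11275 with 50000 bases on either side. The metallothionein gene MT2A had 8195 and 8030, or 75.1% and 73.6% of its window. Over its record alone MT2A had 0 covered bases in both lists. The liver target gene TAT had 2589 bases in the knockout list and 2825 in the control list, or 12.1% and 13.2% of its window. Those shares were above the ones of SGK1 (7.80% and 9.31%). PCK1, also a liver target gene, had 963 and 961 bases, or 5.66% and 5.65%, above the shares of ZBTB16 (3.48% and 2.96%). With peaks reaching a −log10 q of 5 TAT had 0 bases in the knockout list and 2825 in the control list.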
